A study of Rattus norvegicus with 16 samples.

Results

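The 150 genes described here are those whose RNA level in the hypothalamus was highest, relative to the first-generation (F1) rats, in every third-generation (F3) rat of the study. They were chosen from 32883 rat gene IDs. A level is given as CPM, the reads counted for a gene divided by the reads counted for all genes of that library, times 1000000, with no other scaling. Of all IDs, 12864 had at least 1 CPM in each of the 8 F3 libraries, and these are called the detected IDs. They were ranked by the lowest of the 8 F3 levels divided by the highest of the 8 F1 levels plus 0.1 CPM, and the first 150 were taken. Rank 1 is the highest ratio. The choice rests on the measured levels, so the height of these genes in F3 over F1 is a description with no test.

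All animals were female Wistar rats aged 21 days, and the tissue was hypothalamus, labelled MBH-PoA. The F1 control and F3 control rats descended from a maternal line given vehicle, and the F1 EDC and F3 EDC rats from one given a mixture of endocrine disrupting chemicals (EDC). Feeding began 2 weeks before gestation and stopped when lactation ended. The labels describe F1 rats as exposed in utero and F3 rats as exposed through their ancestors. Feeding also covered lactation, so exposure of the F1 rats may have continued after birth. Each of the 4 groups has 4 libraries. Neither the composition and dose of the mixture nor whether rats were littermates is given in the sources used here, so every p-value measures only the spread between these libraries. Each of the 8 EDC samples carries the word Control in its title, and groups were taken from the source description, which names the mixture. The file names carry one lane number for F1 and another for F3, so in any F3 against F1 value the generation cannot be told apart from the sequencing run. The protocol states 4 samples per lane, which conflicts with a single lane number for 8 libraries. The lane of each library is therefore uncertain, and whether EDC and control libraries of a generation were on different lanes was not tested.

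The hypothalamus links the brain to the endocrine system, and its neurons control the release of pituitary hormones, puberty, feeding and maternal behaviour. Endocrine disrupting chemicals are compounds that interfere with the production or action of hormones. When a pregnant female is exposed, the F1 fetus and its germ cells are exposed with her, and along the maternal line F3 is the first generation whose own cells and founding germ cells were not.

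The files identify genes by Ensembl rat ID and do not pair the IDs with names. No name could be matched to any ID, so members appear by ID or by rank, with no statement of their function. For the same reason the marker genes of the hypothalamus and of other cell types could not be read, and the labelled tissue was not checked against them. Counts assigned to genes ran from 5655354 to 35981898 per library. Reads that map to several places took 35.3% ± 10.6 of the reads in the F1 controls and 46.2% ± 4.11 with EDC, and in F3 they took 30.8% ± 11.1 and 24.7% ± 13.6 (SD, n = 4 libraries each).

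The ratio used for ranking was 2.81 at rank 1, 2.03 at rank 10, 1.54 at rank 50 and 1.37 at rank 100. At rank 150 it was 1.2381, and at the first ID outside, rank 151, it was 1.2365. The IDs at ranks 152 and 153 had ratios of 1.2352 and 1.2327. The ratio was over 1 for 430 of the detected IDs (3.34%), so the end at 150 falls within a smooth decline and marks no gap. In the opposite direction, 360 detected IDs had every F3 level under every F1 level.

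**Figure D1:**
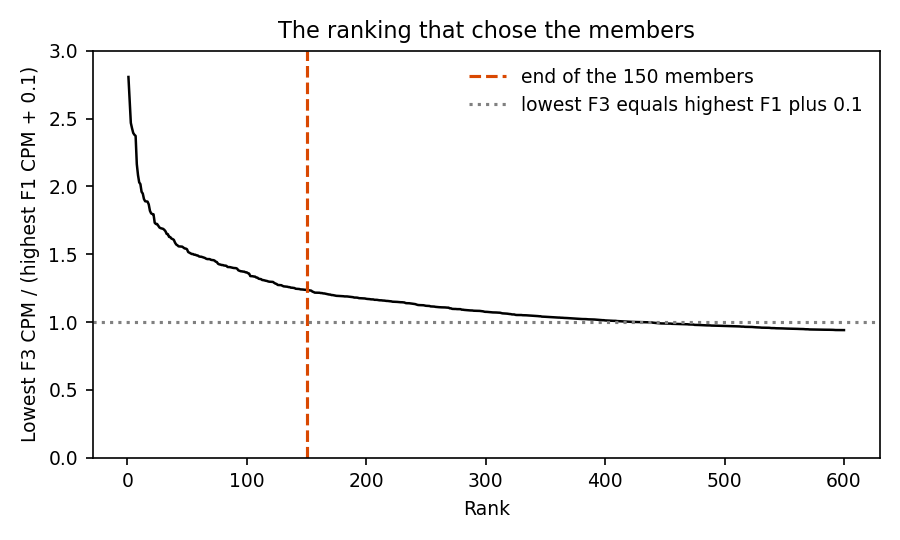
Lowest F3 CPM divided by the highest F1 CPM plus 0.1 (vertical axis) against rank (horizontal axis) for the first 600 detected IDs. The dashed line marks the end of the 150 members, where the ratio is 1.24, and the dotted line marks a ratio of 1.

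The libraries that set the ranking were unevenly spread over the groups. The lowest F3 level came from an F3 EDC library in 127 members and from an F3 control library in 23. F3 EDC replicate 4 gave it in 70 members and F3 EDC replicate 3 in 45. The highest F1 level came from F1 control in 90 members, of which replicate 2 gave 52, and from F1 EDC in 60, of which replicate 3 gave 44. The rule reads no treatment labels, but a difference between the groups of a generation can change the ratio. With the other group unchanged, a gene raised in 1 F1 group has a larger divisor and so a lower ratio. A gene lowered in that F1 group keeps its ratio, and in F3 a gene lowered in 1 group loses rank.

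In F3 the mean level of a member ran from 2.00 to 15806 CPM, with a median of 84.1, against a median of 25.1 for the detected IDs. In F1 it ran from 0.531 to 6419 CPM, with a median of 35.2. The F3 mean exceeded the F1 mean by 1.54-fold to 5.25-fold, with a median of 2.39-fold, and for the detected IDs the median ratio of the means was 0.924. The difference was over 2-fold in 116 members, over 3-fold in 35 and over 4-fold in 10. It was present within each treatment: F3 control over F1 control had a median of 2.45-fold (range 1.48 to 7.74), and F3 EDC over F1 EDC had a median of 2.27-fold (range 1.47 to 16.8). Among all 15366 genes tested, 14.6% were called higher in F3 control than in the F1 controls and 27% higher in F3 EDC than in F1 EDC (53.5% in either direction, and 58.8% of the detected IDs), each at an adjusted p under 0.05 in the edgeR fit described with the EDC comparisons. Nothing is read from these shares for the members, since the ranking used both contrasts. In bulk tissue a higher level from more cells of a type and one from more RNA per cell cannot be told apart.

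Over all 8 libraries of a generation, the members varied less in F3 than in F1. The coefficient of variation over the 8 F3 libraries had a median of 11.8% over the members, and over the 8 F1 libraries a median of 20.3%. These values pool control and EDC libraries, so they also hold the difference between the treatments. That difference was called in 54% of the members in F1 and in 15.3% in F3, against 52.4% and 2.94% of all genes tested. No coefficient of variation was computed for the detected IDs. Whether the lower F3 spread is particular to the members was not tested. A ratio of the lowest F3 to the highest F1 level favours genes of small spread, so the low F3 spread is partly set by the choice. Most members were well counted. The fewest reads for any member in any F3 library were 14, and 6 members had fewer than 10 reads in some F1 library, 1 of which had none there.

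**Figure D2:**
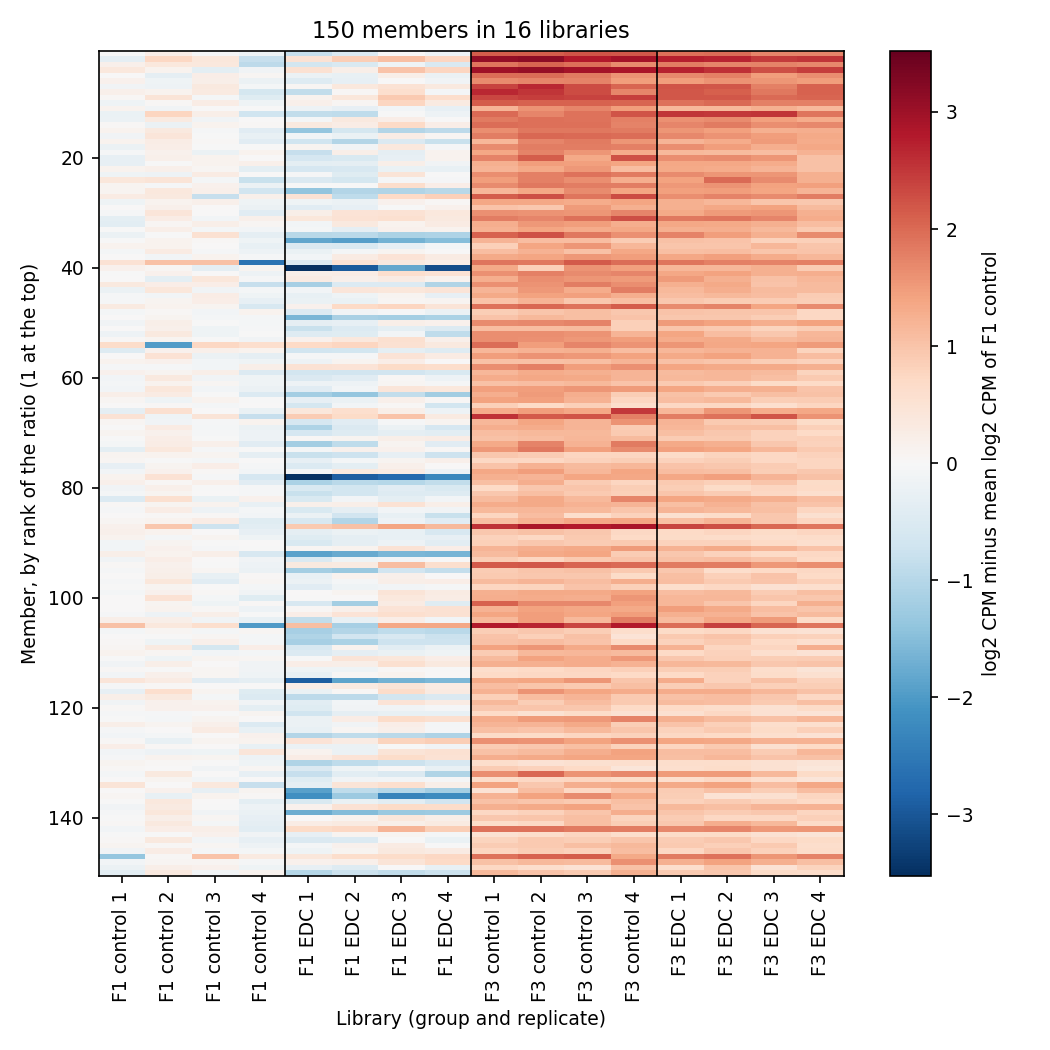
Difference of each member's log2 CPM from its mean log2 CPM in F1 control (colour) for 150 members, ordered by rank from the top, in 16 libraries. The F3 columns are red throughout, and the median over members lies between 0.96 and 1.32 in every F3 library and between -0.31 and 0.12 in every F1 library.

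ENSRNOG00000001004 had the highest rank. Its level was 75.6, 89.8, 74.3 and 66.7 CPM in the F1 controls and 43.7, 53.8, 77.6 and 66.8 in F1 EDC. In the F3 controls it was 333, 332, 354 and 351 CPM, and in F3 EDC 292, 299, 253 and 252. With 0.1 CPM added to the highest F1 library, the lowest F3 library was 2.81 times as high, the F3 to F1 ratio of the means was 4.50, and all 4 F3 EDC libraries lay under all 4 F3 control libraries.

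ENSRNOG00000001337, at rank 2, was lower in level and had a ratio of the means of 5.0. It measured 4.73, 9.92, 7.95 and 3.36 CPM in the F1 controls and 8.46, 11, 12.5 and 10.2 in F1 EDC. In the F3 controls it measured 51.6, 53.7, 42.2 and 45.8 CPM, and in F3 EDC 40.4, 38.6, 33.1 and 34.9. Its F3 groups again did not overlap, with F3 EDC the lower, while its F1 groups overlapped.

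At the other end of the ranking, the lowest F3 library stood closer to the highest F1 library. ENSRNOG00000021156, at rank 149, ran from 16.3 to 25.5 CPM over F1 and from 31.7 to 45.5 over F3, a ratio of the means of 1.80. ENSRNOG00000022267, at rank 150, measured 18.3, 30.0, 22.0 and 26.0 CPM in the F1 controls and 11.9, 13.9, 13 and 14 in F1 EDC. In the F3 controls it measured 51.9, 47.5, 45.4 and 56.2 CPM, and in F3 EDC 44.9, 45.6, 37.5 and 37.2, a ratio of the means of 2.46. The EDC and control libraries of rank 149 overlapped in both generations. Those of rank 150 did not overlap in F1, and in F3 they overlapped only between an EDC library at 45.6 and a control library at 45.4 CPM.

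Together the 150 members held 2.41% ± 0.218 of the gene counts of F1 control libraries and 1.94% ± 0.192 of F1 EDC, against 6.05% ± 0.718 of F3 control and 5.16% ± 0.194 of F3 EDC (SD, n = 4 each). These are shares of counts and are not scaled by gene length. In each group 3 members held more of these counts than the other 147 together, with 1.35% ± 0.154, 1.01% ± 0.104, 3.57% ± 0.671 and 2.97% ± 0.201 in the same order. The other 147 members held 1.06% ± 0.0719, 0.931% ± 0.104, 2.49% ± 0.0672 and 2.19% ± 0.134. For these 147 the 4 F3 EDC libraries (2.03% to 2.31%) lay under the 4 F3 control libraries (2.41% to 2.55%). The 3 most counted members overlapped between the F3 groups, at 2.70% to 4.27% in control and 2.83% to 3.27% in EDC.

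**Figure D3:**
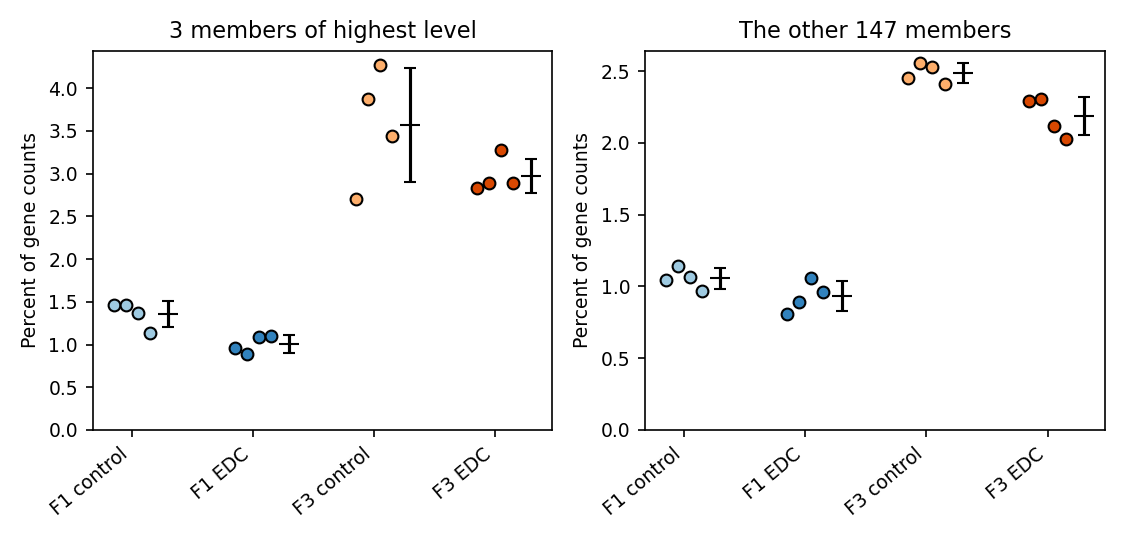
Percent of each library's gene counts held by the 3 most counted members (left) and by the other 147 (right). Points are libraries, and bars show the mean and SD of 4 libraries. On the right, F3 EDC (mean 2.19%) lies under F3 control (mean 2.49%) without overlap, and on the left the F3 groups overlap.

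The 3 most counted members held ranks 36, 17 and 11. The first measured 12685, 18664, 20864 and 16094 CPM in the F3 controls and 14125, 14064, 16001 and 13950 in F3 EDC, against 4947 to 7795 over F1. The second measured 8655, 12698, 13771 and 11395 CPM in the F3 controls and 8807, 9497, 10895 and 9595 in F3 EDC, against 1897 to 4583 over F1. The third measured 5661, 7313, 8047 and 6858 CPM in the F3 controls and 5377, 5381, 5818 and 5395 in F3 EDC, against 1995 to 2665 over F1. In each of the 3, F3 control replicate 1 was the lowest control library, and it stood below the EDC range at ranks 36 and 17 and within it at rank 11. Their IDs lie within 27 lines of each other in the files. That stretch held 11 detected IDs, and the other 8 had ranking ratios of 0.488 to 1.05, so the stretch as a whole did not meet the rule. The F3 to F1 ratios of the means of these 8 ran from 0.972 to 2.73, so a higher mean in F3 was not confined to the members.

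EDC was compared with control inside each generation. The ranking did not use this contrast itself, but it read the same libraries through their highest F1 and lowest F3 levels. Counts were scaled with TMM factors, which set libraries to a common level over most genes. They were tested with edgeR's quasi-likelihood test over 15366 genes in 1 fit of the 4 group means, and p-values were adjusted over all of these genes by the Benjamini-Hochberg method. A gene is called lower or higher at an adjusted p under 0.05. All 150 members were tested. Levels in the following paragraphs are TMM-scaled CPM.

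In F1, 66 members were lower in EDC than in control and 15 were higher, which is 44% and 10% of the members. Over all genes tested, 27% were called lower and 25.4% higher, and over the detected IDs 30.7% and 27.2%. Calls in either direction took 54% of the members, against 52.4% of all genes and 57.9% of the detected IDs, so the total was near both shares. With the F1 control level taken as fixed, the ranking lowers the ratio of a gene raised in F1 EDC and not that of a gene lowered there. The split by direction may thus be partly set by the ranking, which was not tested, and it is given as a description. The log2 fold change was under 0 in 101 members (67.3%, against 50.2% of all genes). Its median was -0.25 over the members and -0.00 over all genes. Of the members called lower, 19 fell more than 2-fold, and none of those called higher rose 2-fold. These counts are a description too, as the share of all genes past 2-fold is not set beside them. A log2 fold change under -2 was seen in 2.67% of the members and 3.18% of all genes. Values over 2 were seen in 0% and 1.95%. The fold changes of the called members had a median of -0.67 for the lower and 0.39 for the higher on the log2 scale. With no scaling beyond the library total, the split was 50 lower and 26 higher, while the median of all genes moved from -0.00 to 0.11. Every F1 EDC library had over 40% of its reads mapped to several places, and with that share as a covariate 64 members were called lower and 12 higher. Calls over all genes, in either direction, took 50.3% with no scaling and 49.3% with the covariate.

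The members with the smallest p-values in F1, chosen after their values were seen, were ENSRNOG00000016302 and ENSRNOG00000002753 among those that fell. ENSRNOG00000016302 (rank 35) measured 41.4, 38.0, 41.8 and 35.3 CPM in the F1 controls and 10.4, 9.36, 11 and 12.4 in F1 EDC, log2 fold change -1.85 ± 0.10 (SE; adjusted p = 1.14e-12 in edgeR). Its F3 levels were 94.9, 91.5, 86.5 and 73.5 CPM in control and 77.4, 77.0, 66.6 and 77.6 in EDC, log2 fold change -0.22 (adjusted p = 0.215 in edgeR). The F1 groups stood far apart, whereas the F3 groups overlapped.

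ENSRNOG00000002753 (rank 49) had the same order of groups at a higher level. It measured 173, 154, 159 and 154 CPM in the F1 controls and 50.4, 65.9, 63.6 and 65.9 in F1 EDC, log2 fold change -1.38 ± 0.08 (SE; adjusted p = 3.81e-12 in edgeR). In F3 it measured 344, 387, 347 and 324 CPM in control and 299, 302, 279 and 294 in EDC, log2 fold change -0.26 (adjusted p = 0.0855 in edgeR). The groups did not overlap in either generation.

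The largest falls in F1 were at ranks 40 and 78. The first had a mean of 10.3 ± 1.59 CPM in the F1 controls and 1.36 ± 0.827 in F1 EDC (SD, n = 4 each), a log2 fold change of -3.03 (SE 0.25). The second had 72.1 ± 18.7 and 9.16 ± 2.91 CPM, a log2 fold change of -2.95 (SE 0.22). In F3 the EDC against control values of these 2 members were -0.25 and -0.11 on the log2 scale, and neither passed the threshold (edgeR adjusted p = 0.535 and 0.83).

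Of the 15 members called higher in F1 EDC, ENSRNOG00000016684 and ENSRNOG00000020703 had the smallest p-values, and they too were chosen after their values were seen. ENSRNOG00000016684 (rank 142) measured 60.1, 63.0, 72.3 and 46.7 CPM in the F1 controls and 92.2, 91.3, 124 and 97.5 in F1 EDC, log2 fold change 0.73 ± 0.11 (SE; adjusted p = 1.11e-05 in edgeR). ENSRNOG00000020703 (rank 58) measured 23.3, 19.8, 22.0 and 26.2 CPM in the F1 controls and 31.2, 29.4, 32.6 and 31.6 in F1 EDC, log2 fold change 0.47 ± 0.09 (SE; adjusted p = 0.000211 in edgeR). Neither overlapped between the F1 groups.

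The 2 members of highest rank went opposite ways in F1. ENSRNOG00000001004 fell by 0.47 on the log2 scale (SE 0.11, edgeR adjusted p = 0.00144), from a mean of 76.9 ± 6.55 to 55.7 ± 12.5 CPM (SD, n = 4 each). ENSRNOG00000001337 rose by 0.51 (SE 0.20, edgeR adjusted p = 0.0375), from 6.44 ± 2.66 to 9.73 ± 1.37 CPM, a call that held in 20 of 28 other settings or library sets. Both of lowest rank fell, ENSRNOG00000021156 by 0.38 (edgeR adjusted p = 0.0184, held in 24 of 28) and ENSRNOG00000022267 by 0.97 (edgeR adjusted p = 1.24e-07).

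In F3 nearly all members had lower values in EDC than in control. The log2 fold change of EDC against control was under 0 in 146 of the 150 members (97.3%), against 55.0% of all genes tested and 56.4% of the detected IDs. Its median was -0.28 over the members and -0.03 over all genes, and the quartiles over the members were -0.39 and -0.20. edgeR called 23 members lower (15.3%) and 0 higher. Over all genes, 2.94% were called in either direction, 1.87% lower and 1.07% higher. Over the detected IDs the shares were 3.49%, 2.22% and 1.27%. At an unadjusted p under 0.05 the count was 90 lower and 0 higher, and DESeq2 and limma called 0 and 1 member higher. The share of all genes at the unadjusted threshold is not given, so those counts have no background beside them. The falls were small: the 23 called members fell by 0.26 to 0.54 on the log2 scale, and none reached 2-fold.

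The number of calls in F3 depended on single libraries, among the members and over all genes. Leaving out F3 EDC replicate 3 gave 1 call, F3 control replicate 2 gave 2 and F3 EDC replicate 2 gave 9. Over all genes these fits called 0.222%, 0.567% and 1.68%, against 2.94% with every library. The member count was 13 without F3 control replicate 1 (1.30% of all genes) or F3 EDC replicate 1 (1.56%). It was 15 without F3 control replicate 3 (2.02%) or F3 EDC replicate 4 (1.70%), and 35 without F3 control replicate 4 (3.49%). Over these fits and the 8 without 1 F1 library, between 143 and 146 members had a value under 0. With no scaling beyond the library total, 1 member was called, against 1.08% of all genes. In that fit 138 members were under 0, with medians of -0.20 over the members and 0.05 over all genes. When libraries with over 40% multimapping reads were left out, which leaves 3 libraries in each F3 group, edgeR called 0 members and 0 of all genes, 142 members were under 0 and 89 had an unadjusted p under 0.05. With the share of such reads as a covariate, 18 members were called.

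The plain CPM levels, with no TMM scaling, were also compared by the ranges of the groups. All 4 F3 EDC libraries lay under all 4 F3 control libraries in 49 members (32.7%), against 3.78% of all genes tested and 4.22% of the detected IDs. The reverse, with EDC above, was seen in 0 members, against 5.76% of all genes and 6.13% of the detected IDs. In F1 the EDC libraries lay wholly under the controls in 35 members (23.3%, against 16.6% of all genes) and wholly above in 13 (8.67%, against 25.7%). The ranking may partly set this split too, which was not tested.

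**Figure D4:**
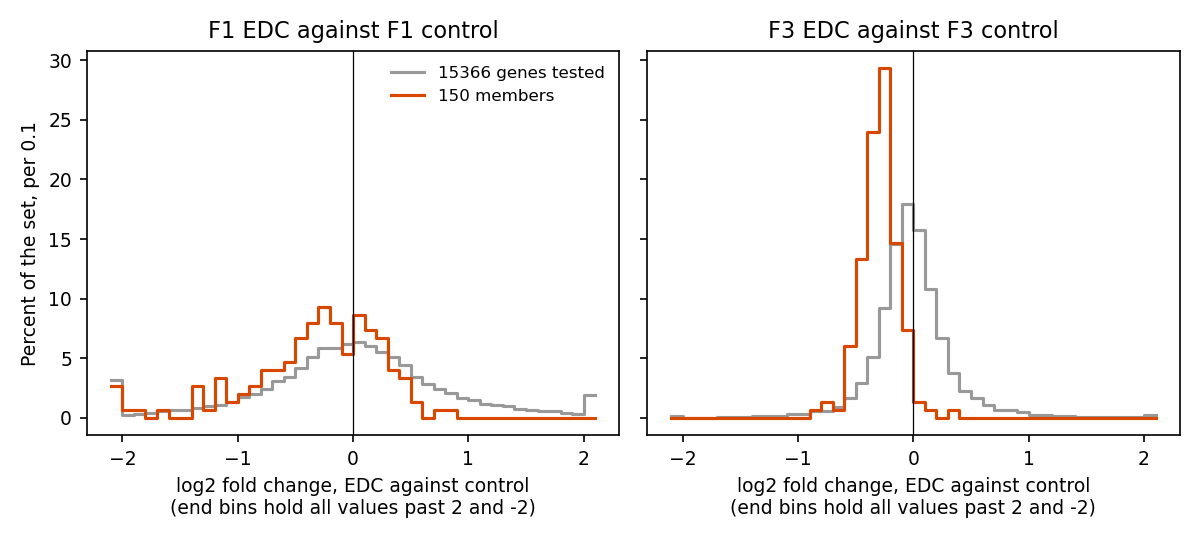
Distribution of the log2 fold change of EDC against control in F1 (left) and F3 (right) for the 150 members (orange) and the 15366 genes tested (grey), as percent of each set per 0.1. In F3 the members' median is -0.28 against -0.03 for all genes, and in F1 the medians are -0.25 and -0.00.

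ENSRNOG00000022753 and ENSRNOG00000056118 had the smallest p-values in F3, and were chosen after their values were seen. ENSRNOG00000022753 (rank 110) measured 188, 234, 224 and 209 CPM in the F3 controls and 150, 165, 138 and 151 in F3 EDC, log2 fold change -0.50 ± 0.08 (SE; adjusted p = 0.00449 in edgeR). Its F1 levels were 110, 88.8, 92.1 and 90.6 CPM in control and 65.3, 70.5, 73.0 and 76.1 in EDC, log2 fold change -0.42 (adjusted p = 0.000222 in edgeR). It was lower in EDC in both generations, with no overlap in either.

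ENSRNOG00000056118 (rank 41) measured 208, 240, 214 and 214 CPM in the F3 controls and 161, 169, 146 and 173 in F3 EDC, log2 fold change -0.43 ± 0.08 (SE; adjusted p = 0.00732 in edgeR). In F1 it measured 67.4, 64.2, 67.8 and 56.6 CPM in control and 70.9, 70.9, 87.1 and 81.7 in EDC, which is higher in EDC (log2 fold change 0.27, edgeR adjusted p = 0.00852). The F3 calls of these 2 members held in 28 and 26 of 29 other settings or library sets.

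ENSRNOG00000020703, one of those higher in F1 EDC, was also called lower in F3 EDC. It measured 75.2, 85.9, 66.6 and 70.3 CPM in the F3 controls and 57.8, 56.6, 54.9 and 59.7 in F3 EDC, log2 fold change -0.38 ± 0.09 (SE; adjusted p = 0.0205 in edgeR, held in 23 of 29 settings). ENSRNOG00000001004 and ENSRNOG00000022267 had F3 values of -0.39 and -0.36 and just missed the threshold (edgeR adjusted p = 0.0535 and 0.0596). The other members of first and last rank had F3 values of -0.48 (ENSRNOG00000001337, edgeR adjusted p = 0.148) and -0.07 (ENSRNOG00000021156, edgeR adjusted p = 0.838).

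Of the 3 most counted members, rank 11 was called lower in F3 EDC (log2 fold change -0.42, edgeR adjusted p = 0.0353). Ranks 36 and 17 had values of -0.31 and -0.34 and did not pass (edgeR adjusted p = 0.294 and 0.318). With these 3 left out of the counts and of the library totals, 22 of the 147 other members were called lower in F3. Over all genes 2.96% were called in that fit, in either direction.

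The remaining 4 members had an F3 value above 0, at ranks 12, 29, 135 and 141, and none passed the threshold. The highest was rank 12, at 24.9, 20.6, 23.4 and 28.9 plain CPM in the F3 controls and 35.8, 34.9, 35.8 and 22.9 in F3 EDC, with log2 fold change 0.33 (adjusted p = 0.402 in edgeR). Its F3 EDC replicate 4 lay within the control range, and the other 3 EDC libraries lay above it.

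The F3 calls lay between ranks 11 and 129. Ranks 1 to 50 held 8 of them, ranks 51 to 100 held 10 and ranks 101 to 150 held 5, and the F3 medians of the log2 fold change were -0.32, -0.29 and -0.25. By mean F3 level, 0 of the 9 members under 10 CPM were called lower, 7 of the 75 from 10 to 100, 15 of the 62 from 100 to 1000 and 1 of the 4 above 1000. Shares of all genes called by level are not given, so these counts describe the members alone.

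The F1 and F3 comparisons use different libraries, so their values can be set side by side. Of the 66 members lower in F1 EDC, 9 were called lower in F3 EDC and 64 had an F3 value under 0, with an F3 median of -0.26. Of the 15 higher in F1 EDC, 4 were called lower in F3 EDC and all 15 had an F3 value under 0, with a median of -0.36. Of the 69 not called in F1, 10 were called lower in F3 and 67 were under 0, with a median of -0.29. The F3 values were thus under 0 in nearly all members of each F1 class. Over all genes 1.87% were called lower in F3 and 55.0% were under 0. These shares were not split by F1 class, so whether the F1 class matters for F3 was not tested.

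The difference between the F3 effect and the F1 effect was tested directly as an interaction contrast in the same edgeR fit. It passed an adjusted p of 0.05 in 65 members (43.3%), against 43.6% of all genes tested and 49% of the detected IDs. The share was thus not above the background. In 32 members the difference was above 0 and in 33 below 0, with a median of -0.03 over the members. Among the members named above, it was 1.63 for ENSRNOG00000016302 and 1.12 for ENSRNOG00000002753, which fell in F1 and had F3 values nearer 0. It was -1.06 for ENSRNOG00000016684, -0.98 for ENSRNOG00000001337, -0.85 for ENSRNOG00000020703 and -0.71 for ENSRNOG00000056118, which were higher in EDC in F1 and had F3 values under 0. All of these except ENSRNOG00000001337 were named for a small p-value within 1 generation, a choice that favours a large difference. For ENSRNOG00000001004 and ENSRNOG00000022753 the differences were 0.07 and -0.08 and did not pass (edgeR adjusted p = 0.738 and 0.624).

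**Figure D5:**
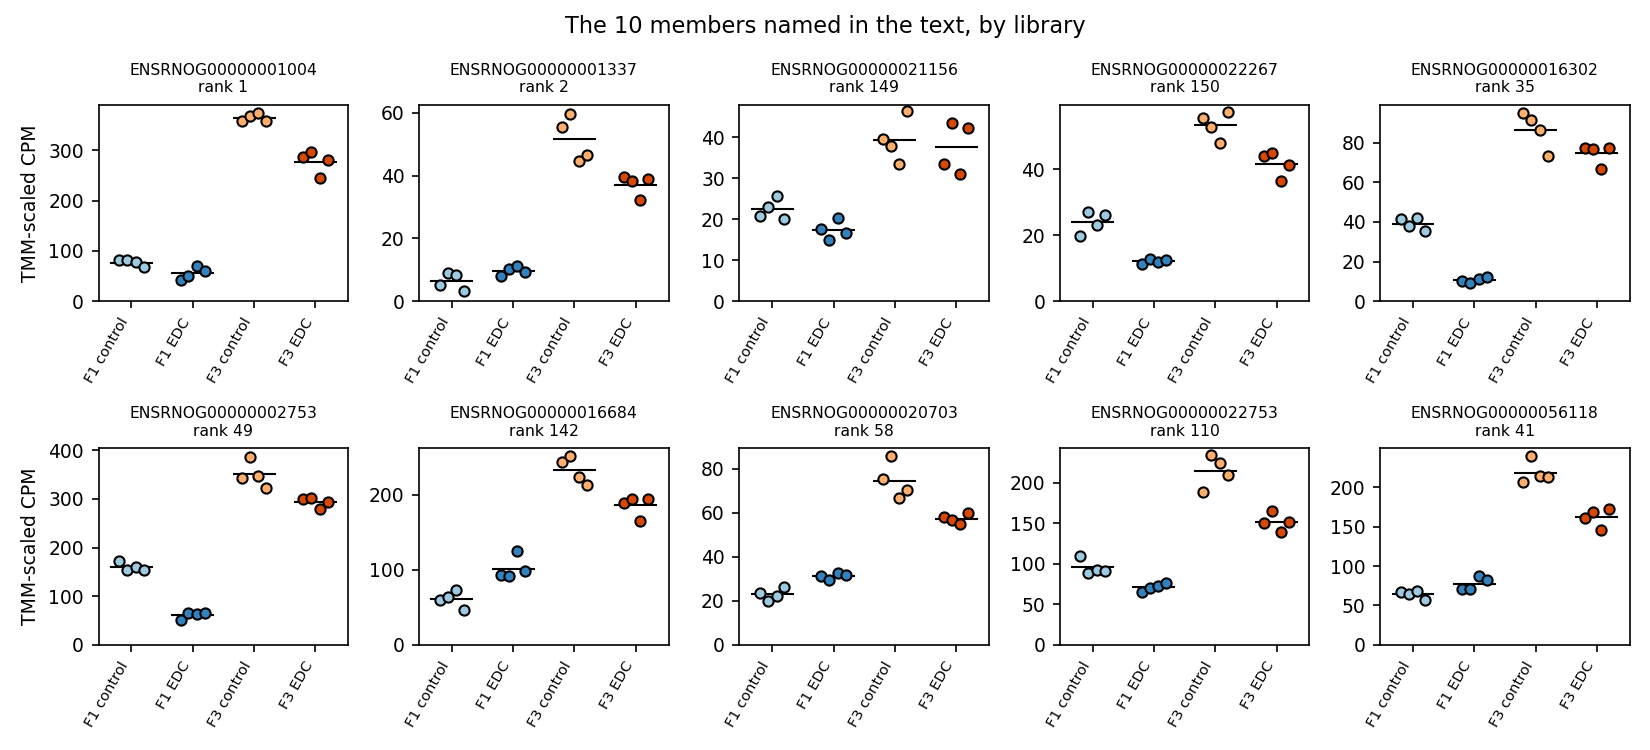
TMM-scaled CPM (vertical axes, each from 0) of the 10 members named in the text, by group. Points are libraries and lines are means of 4 libraries. All 8 F3 libraries lie above all 8 F1 libraries in each panel, which the ranking required in plain CPM, and the F3 EDC mean lies under the F3 control mean in each.

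The order of the 4 group means in plain CPM fell into 2 main patterns. In 85 members it was F3 control, F3 EDC, F1 control, F1 EDC from high to low, and in 54 it was F3 control, F3 EDC, F1 EDC, F1 control. F3 EDC had the highest mean in the rest, with F1 control above F1 EDC in 6 and below it in 5. The ranking keeps every F3 library above every F1 library, so no F3 group overlapped an F1 group. Within F3, the 49 members given above were those without overlap.

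Reads from the strand opposite to the gene were not used by the ranking. Their share is not independent of it, since the ranked reads are part of the divisor. A higher ranked count in F3 lowers the share there unless opposite-strand reads rise as well. In the median member opposite-strand reads made up 0.0781% of the stranded reads at that gene, against 0.101% for the detected IDs. They exceeded 1% in 17 members (11.3%, against 19.7% of the detected IDs) and 10% in 2, at ranks 7 and 11. The counts of 135 members (90.0%) stayed within 0.02 of a ratio of 1 when reads were counted without regard to strand, against 85.5% of the detected IDs.

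At rank 11 the opposite-strand share was 11.9% ± 1.10 in control and 11.1% ± 0.186 in EDC libraries of F1, and 8.92% ± 1.59 and 13.6% ± 0.799 in those of F3 (SD, n = 4 each). The F3 groups did not overlap, with 6.79% to 10.6% in control and 12.9% to 14.7% in EDC. On the CPM scale, opposite-strand reads at this ID were 675 in the F3 controls and 868 in F3 EDC, while the reads on the gene's own strand were fewer in EDC. At rank 7 the share was 35.6% ± 4.16 in the F1 controls and 17.4% ± 0.575 in F3 EDC, with 21.8% ± 5.03 in F1 EDC and 18.8% ± 2.72 in F3 control. Over all other members the summed share was 0.134% to 0.262% in the 4 group means.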

How the data were processed

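RNA was measured in 16 libraries by sequencing single reads of 100 cycles. Each deposited file lists whole-number read counts per gene for 32883 Ensembl rat IDs, in STAR's gene count format per the file headers and columns. Trimmomatic 0.33, TopHat2 2.1 and build rn6 are named in the submitters' processing notes. STAR's version and the annotation release were not given in the sources used here. The stranded counts of column 4 were used, and the 4 summary lines of each file entered neither totals nor tests. CPM was computed here from those counts.

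Members and gene lists were chosen with earlier results of these data known. Planned gene lists, cell type markers and sequences were left out, since 0 IDs could be paired with a symbol. The naming rule, with no symbols, took the 2 IDs of highest rank and the 2 of lowest. The other 6 IDs were chosen after their values were seen, as those of smallest p.

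Tests used edgeR 4.0.16 in R 4.3.3, with TMM factors, filterByExpr (count minimum 10) and the robust quasi-likelihood F test, two-sided, on 4 group means over all 16 libraries. An SE is the fold change over the root of its F value. The procedure was tested on simulated data in which only a small share of the genes was changed. In F1, 52.4% of all genes were called, so that simulation does not bear on a contrast with so many calls. Alternatives changed the scaling (RLE, upper quartile), the test (DESeq2 1.42.0, or voom in limma 3.58.1 with quality weights per library) and the filter (none, or a mean log2 CPM of at least 1). Others fitted each generation by itself, used counts without strand, blocked on replicate number or left out each library. The ranking was repeated with other scaling, offsets and minimums. Fits with no scaling factors, with the multimapping share, without libraries over 40% multimapping and without the 3 most counted members were added after seeing the data.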

Additional observations from a re-analysis of the deposited data

Results flagged for a closer look

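Among 56 sets of 4 libraries checked for 1 library far from the others, 3 had a gap to the nearest library of more than 0.829 of the whole range, and chance gives about 1 in 20 such sets. For ENSRNOG00000016302 in F3 EDC the gap was 0.945 of the range, with replicate 3 at 66.6 and the others at 77.0 to 77.6 TMM-scaled CPM. For ENSRNOG00000002753 in F1 EDC it was 0.848, with replicate 1 at 50.4 and the others at 63.6 to 65.9. For ENSRNOG00000022753 in F1 control it was 0.845, with replicate 1 at 110 and the others at 88.8 to 92.1.

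The EDC effect differed between the generations by the interaction test of edgeR in 65 of the 150 members (43.3%), against 43.6% of all genes tested and 49% of the detected IDs, so the share was not above the background. Among the named members, the F3 effect minus the F1 effect on the log2 scale was -0.98 for ENSRNOG00000001337, 0.62 for ENSRNOG00000022267, 1.63 for ENSRNOG00000016302 and 1.12 for ENSRNOG00000002753. It was -1.06 for ENSRNOG00000016684, -0.85 for ENSRNOG00000020703 and -0.71 for ENSRNOG00000056118. All of these except ENSRNOG00000001337 and ENSRNOG00000022267 were named for a small p-value within 1 generation, which favours a large difference.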

How the results depend on the processing

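The count of members called lower or higher in F3 EDC was 23 and was the result that moved most. It was 42 with DESeq2, 85 with limma voom (84 lower and 1 higher) and 45 with each generation fitted alone. In the same order, calls over all genes rose from 2.94% to 7.53%, 9.81% and 4.16%. The DESeq2 share is of the genes given an adjusted p. The member count was 1 with no scaling factors beyond the library total, against 1.08% of all genes. It was 0 without the libraries over 40% multimapping, where the smallest edgeR adjusted p was 0.0628 and the fit had fewer libraries. In the other settings the member count was 17 to 22. Leaving out each library in turn gave 1 to 35 members and 0.222% to 3.49% of all genes. In every setting run, 138 to 146 members had an F3 value under 0. The causes were not tested. The F1 count (81) ran from 71 to 84 over settings and from 75 to 83 with a library left out, and the count for the difference of effects (65) from 59 to 70 and from 61 to 69. Over all genes the F1 calls ran from 34.6% to 58.3% and from 47.6% to 51.8%. Those for the difference ran from 28.0% to 49.9% and from 39.7% to 42.8%. The F1 comparison could not be fitted without the libraries over 40% multimapping, which removes all F1 EDC libraries.

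Same-numbered EDC and control libraries had correlations of their deviations from the group means of -0.04 to 0.09 in F1 and -0.11 to 0.04 in F3. They were each other's best match at F1 replicate 1 and F3 replicate 2, and on the EDC side only at F3 replicate 3. With 4 libraries per group, such weak correlations cannot decide whether the numbers pair the samples. The main fit used no pairing. With the replicate block the counts were 81 in F1, 20 in F3 and 65 for the difference. Over all genes the shares called with that block were 50.3%, 1.98% and 40.9%.

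Repeating the ranking by the mean of F3 over the mean of F1 kept 82 of the 150 members. TMM-scaled CPM kept 125, other offsets, minimums or the unstranded counts kept 140 to 149, and leaving out a library kept 129 to 150. For the 10 named members, 532 of their values over the alternatives kept their side of the threshold, 22 lost a call, 16 gained one and none of the called values changed sign. The F3 value of ENSRNOG00000021156, which was not called, ran from -0.15 to 0.01. Members under 10 CPM had as few as 0 reads in an F1 library, which limits their ratios.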
